A study of Mus musculus with 18 samples.

Results

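Neural progenitor and neuron genes were followed through mouse development in 9 genes: Sox2, Pax6, Zic1 and Fabp7 for progenitors, and Dcx, Tubb3, Stmn2, Nefl and Nefm for neurons. They were chosen by symbol, as every probe set that the array annotation assigned to 1 of these symbols and to no other. This gave 19 probe sets for 9 of the 18193 genes that could be named on the array. The study profiled liver development in CD-1 mice, an outbred strain, on 18 Affymetrix arrays. Tissues of 3 kinds were hybridised. The rest of the embryo, which is the whole embryo with its liver removed, had 1 array per stage at 4 stages counted in days post conception (dpc), which were each day between 10.5 and 12.5 dpc, and 14.5 dpc. Embryonic liver had 2 arrays at each of 6 stages, daily from 10.5 to 14.5 dpc and at 16.5 dpc, and normal liver of females 10 weeks old had 2. Each embryonic sample pooled at least 5 embryos. The rest of the embryo holds brain, spinal cord and peripheral ganglia together with every other tissue, so a level there is a mean over all of them, and fewer cells of a type cannot be told apart from less RNA per cell.

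The vertebrate nervous system is built from dividing neuroepithelial cells that line the neural tube. These progenitors leave the cell cycle in waves, switch on proneural factors, and mature into neurons that extend axons and build synapses. Sox2 is a SOX transcription factor that keeps neural progenitors undifferentiated, Pax6 is a paired-box factor that patterns forebrain, hindbrain, spinal cord and eye, Zic1 is a zinc finger factor of the dorsal neural tube and cerebellum, and Fabp7 is a fatty acid binding protein of radial glia. Dcx (doublecortin) binds microtubules in migrating neurons, Tubb3 is the neuronal beta-tubulin, Stmn2 is a growth cone protein that regulates microtubules, and Nefl and Nefm are the light and medium neurofilament subunits that fill axons. The liver parenchyma comes from foregut endoderm and not from the neural tube.

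Promoter windows from RefSeq (build GRCm38.p6) were found for 6 of the 9 genes: Sox2, Pax6, Zic1, Fabp7, Dcx and Tubb3. A window runs from 250 bases before the annotated start to 50 after it. Sox2 and Fabp7 are shown as progenitor genes whose levels took different courses, and Dcx and Tubb3 as neuron genes. The windows are chr3:34649745-34650044 on the plus strand for Sox2, chr10:57784673-57784972 on the plus strand for Fabp7, chrX:143933170-143933469 on the minus strand for Dcx and chr8:123411303-123411602 on the plus strand for Tubb3. Capitals mark matches, on either strand, to the SOX core ACAATG, the E-box forms CAGCTG and also CAGATG, the octamer ATGCAAAT that POU factors bind, the CCAAT box and the TATA box TATAAA. A match on the opposite strand shows as its reverse complement (ATTGG in place of CCAAT, for example).
Sox2: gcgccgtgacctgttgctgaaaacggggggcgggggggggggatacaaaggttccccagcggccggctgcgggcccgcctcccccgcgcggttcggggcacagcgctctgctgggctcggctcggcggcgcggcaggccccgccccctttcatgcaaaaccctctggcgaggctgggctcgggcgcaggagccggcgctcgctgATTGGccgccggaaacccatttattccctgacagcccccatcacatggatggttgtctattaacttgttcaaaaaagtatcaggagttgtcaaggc
Fabp7: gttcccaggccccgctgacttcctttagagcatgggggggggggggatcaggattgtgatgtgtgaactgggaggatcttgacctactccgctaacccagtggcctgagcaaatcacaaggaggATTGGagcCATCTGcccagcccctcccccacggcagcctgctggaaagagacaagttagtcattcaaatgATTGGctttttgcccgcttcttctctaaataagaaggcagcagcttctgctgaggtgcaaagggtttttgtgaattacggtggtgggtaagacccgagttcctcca
Dcx: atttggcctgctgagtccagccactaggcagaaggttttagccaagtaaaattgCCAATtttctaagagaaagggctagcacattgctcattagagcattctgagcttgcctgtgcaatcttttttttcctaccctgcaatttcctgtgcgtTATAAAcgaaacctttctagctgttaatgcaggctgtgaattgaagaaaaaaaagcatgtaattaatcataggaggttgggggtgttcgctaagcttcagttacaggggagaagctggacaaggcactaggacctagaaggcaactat
Tubb3: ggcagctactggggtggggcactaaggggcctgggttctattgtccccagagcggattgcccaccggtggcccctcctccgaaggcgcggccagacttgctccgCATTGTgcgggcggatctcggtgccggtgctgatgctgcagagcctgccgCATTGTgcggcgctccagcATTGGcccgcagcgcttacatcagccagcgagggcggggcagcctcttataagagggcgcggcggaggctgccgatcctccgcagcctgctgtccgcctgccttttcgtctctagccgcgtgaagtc

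On GRCm38.p6 the annotated genes span bases 34649995 to 34652461 of chromosome 3 (Sox2), 57784923 to 57788450 of chromosome 10 (Fabp7), 143855842 to 143933396 of chromosome X (Dcx) and 123411553 to 123422015 of chromosome 8 (Tubb3). The Sox2 and Tubb3 windows had a high GC content, at 66.3% and 67.3%, against a median of 52.7% over all 32851 windows of the table. The Fabp7 window was near that median, at 54.0%, and the first Dcx window had a low GC content, at 43.0%. All 4 printed windows held the letters CCAAT, as did 37.4% of all windows. CCAAT lay at -46 from the annotated start in Sox2, at -126 and -56 in Fabp7, at -196 in Dcx and at -77 in Tubb3. The letters ACAATG, a core that SOX proteins bind, occurred at -146 and -96 in Tubb3 and in 12.6% of all windows. CAGATG, one form of the E-box that proneural factors bind, occurred at -118 in Fabp7 and in 17.2% of all windows. TATAAA occurred at -98 in Dcx and in 13.6% of all windows. None of the 4 windows held CAGCTG or ATGCAAAT, which 16.3% and 1.74% of all windows held. These matches describe letters in a window and not occupied sites.

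The values are probe set intensities on a linear scale. Before log2 transformation, values under 24.8 (the 20th percentile of the whole table) were set to it as a floor. A probe set was tested where at least 2 arrays of the fit exceeded 77.95, the 50th percentile. Tests used limma's moderated test, two-sided, with Benjamini-Hochberg adjustment over all probe sets tested, and a difference was called at an adjusted p below 0.05 and at least 1 log2 unit, or 0.25 log2 units per day for a slope. Replicate arrays correlated at 0.948 to 0.980 (Pearson's r over probe sets). The liver and rest-of-embryo arrays carry different forms of values. Liver arrays held 1216 to 1535 values below 0 and a 99th percentile of 1325 to 2935, while arrays of the rest of the embryo held none below 0 and a 99th percentile of 5553 to 5953. Differences between the tissues therefore also cross 2 scalings, and the median difference of all probe sets, rest of the embryo minus liver, was 0.96 log2 units. The liver labels fitted the liver-cell genes: 7 hepatocyte genes summed to 10199 to 34108 on embryonic liver arrays and 32046 and 33491 in adult liver, and to 2041, 3823, 6821 and 12475 over the 4 stages of the rest of the embryo.

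All 9 genes except Pax6 were bright in the rest of the embryo and dim in liver by the probe set that stands for the gene, which is the one with the highest mean over all arrays. In the rest of the embryo the 4 stages in order gave 3555, 3434, 3032 and 1404 for Sox2. Zic1 read 3534, 3865, 3657 and 2009. Both were nearly level over the first 3 stages and lower at 14.5 dpc. Fabp7 read 5356, 6766, 6939 and 5924, highest in the middle of the series and above its first value at the end.

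Pax6 has 5 probe sets, and they did not follow one another. Probe set 1419271_at read 696, 457, 519 and 380 in the rest of the embryo, against 20.2 to 30.3 on the 12 embryonic liver arrays, so the tissues did not overlap. Probe set 1437816_at, which stands for the gene by its mean, read 127, 112, 111 and 126 in the rest of the embryo, against 143 to 299 in embryonic liver. It gave its higher values in liver at every stage and no course in the embryo. Probe set 1452526_a_at read 131, 72.4, 93.9 and 57.6, probe set 1425960_s_at 57.6, 24.2, 34.0 and 18.2, and probe set 1456342_at 53.7, 80.7, 57.3 and 66.3. Of the 5, 3 were lower at 14.5 than at 10.5 dpc, 1437816_at was level and 1456342_at was higher. Both 1425960_s_at and 1456342_at lay within their ranges in embryonic liver (5.99 to 58.1 and 12.2 to 101), so their directions carry little weight.

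Among the neuron genes, Dcx (1418139_at) read 1429, 2335, 2312 and 2402, a step up after the first stage and then a plateau. Stmn2 (1423280_at) read 2417, 3648, 3806 and 4294, and its second probe set, 1423281_at, read 2253, 3633, 4230 and 3660. Both probe sets gained most between 10.5 and 11.5 dpc and differed after 12.5 dpc. Tubb3 read 2838, 3626, 4114 and 3380, highest at 12.5 dpc. Nefm read 5959, 6022, 5950 and 3558, and Nefl (1426255_at) read 3971, 3707, 4053 and 2580. Both were nearly level until 12.5 dpc and lower at 14.5 dpc. Nefl's second probe set, 1454672_at, read 1850, 2187, 2348 and 1500, a gain of 1.27 times up to 12.5 dpc before the low value at 14.5 dpc. Of Dcx's other probe sets, 1418141_at read 159, 298, 295 and 394, while 1418140_at (51.1 to 66.4) and 1448974_at (65.4 to 91.5) were dim at all 4 stages.

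**Figure D1:**
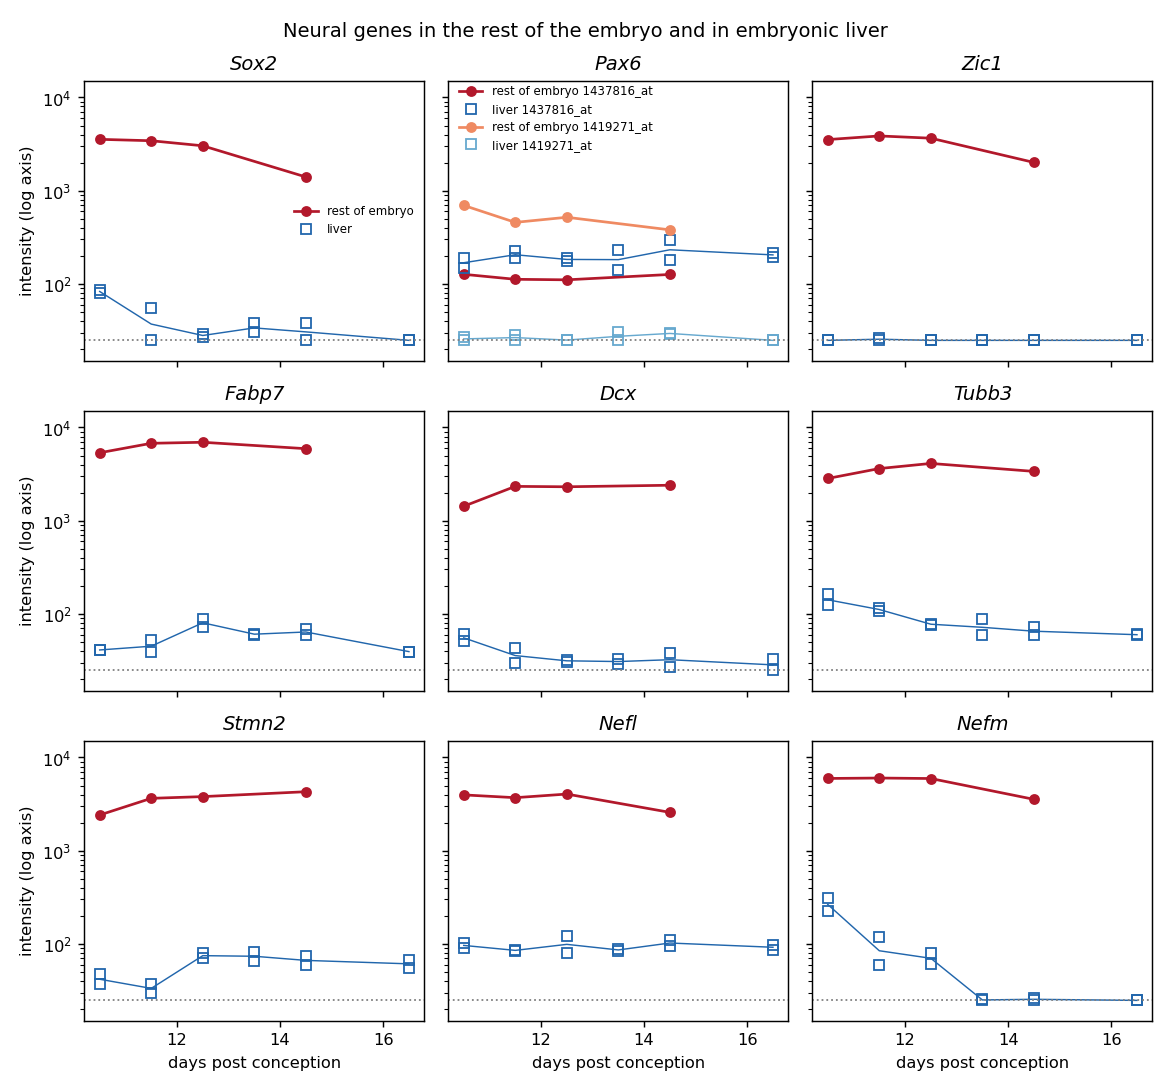
Intensity (log axis) of the 9 genes against days post conception, with filled circles for the single rest-of-embryo array at each stage and open squares for the 2 liver arrays, their geometric mean as a thin line and the floor of 24.8 as a dotted line. For 8 genes the circles lie far above the squares; for Pax6, probe set 1437816_at is the exception and 1419271_at is drawn beside it.

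The course from progenitor to neuron over the rest of the embryo was measured on 4 single arrays. Against the earliest array, Sox2 stood at 0.395 of its value at 14.5 dpc, a ratio that 0.704% of the 23022 probe sets above the filter on both arrays went below. Zic1 stood at 0.569 (3.79% of probe sets lower) and Pax6 1419271_at at 0.546 (3.10% lower), while Fabp7 stood at 1.11. Over the same span Dcx stood at 1.68 (88.2% of probe sets lower) and at 2.49 by 1418141_at (95.4% lower), Stmn2 at 1.78 and 1.62, and Tubb3 at 1.19. The middle 90% of probe sets ran from 0.598 to 2.38. So 3 of the 4 progenitor genes, with Pax6 read by 1419271_at, lay below that range, Zic1's second probe set (0.622) did not, Nefm (0.597) lay just below it, and the second Dcx probe set lay above it.

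The steps fell at different times. Between 10.5 and 11.5 dpc the ratio of the later to the earlier array was 1.63 for Dcx (97.3% of probe sets lower), 1.51 and 1.61 for Stmn2 and 1.28 for Tubb3, against 0.966 for Sox2 and 1.09 for Zic1. The progenitor gene Fabp7 stood at 1.26, near Tubb3. The neuron genes Nefm (1.01) and Nefl (0.933 and 1.18) gained less. Pax6 1419271_at stood at 0.657 and Zic1's second probe set at 0.816. Between 12.5 and 14.5 dpc the ratio was 0.463 for Sox2 (0.616% of probe sets lower) and 0.549 for Zic1 (1.39% lower). In that last step Nefm stood at 0.598 (2.15% lower) and the 2 Nefl probe sets at 0.636 and 0.639 (3.04% and 3.10% lower), while Dcx stood at 1.04 and Stmn2 at 1.13 and 0.865. Zic1's second probe set stood at 0.650, Pax6 1419271_at at 0.733, Tubb3 at 0.822 and Fabp7 at 0.854. The neurofilament genes thus sat with Sox2 and Zic1 in the last step, and Dcx and Stmn2 did not. Neither step divided the members cleanly into progenitor and neuron genes.

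**Figure D2:**
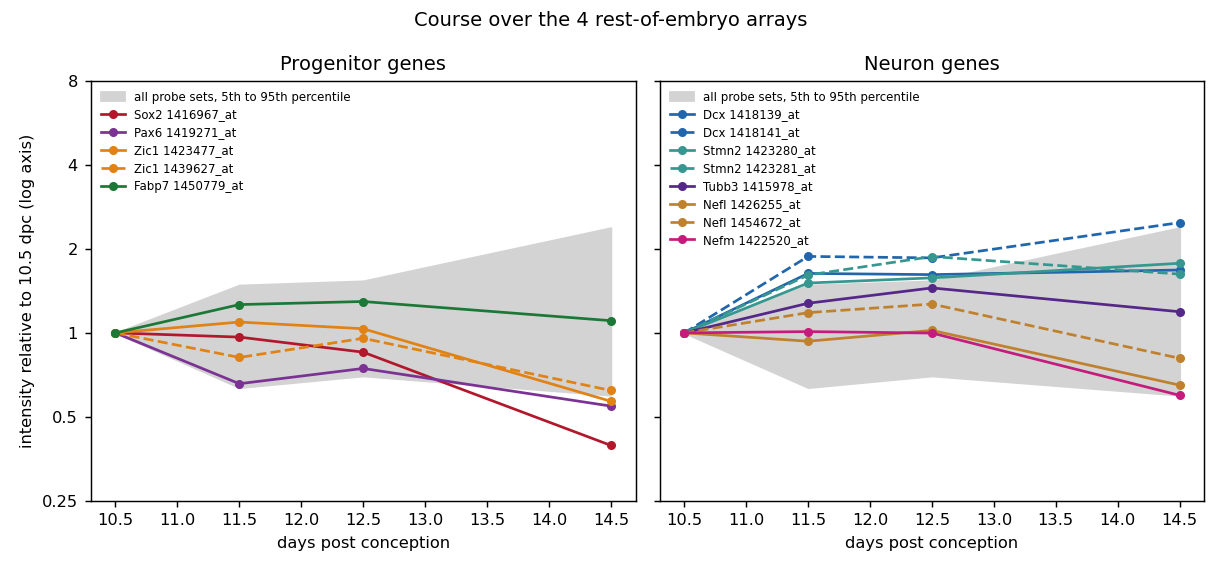
Intensity of each probe set relative to its own value at 10.5 dpc (log axis) over the 4 rest-of-embryo arrays, progenitor genes on the left and neuron genes on the right, a dashed line for the second probe set of a gene; the grey band holds the middle 90% of all probe sets above the filter. Sox2 ends at 0.395 and Dcx 1418141_at at 2.49.

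A slope over the 4 arrays was tested with the spread of the liver pairs, since each embryo stage has 1 array. Of 32825 probe sets, 2406 rose (7.33%) and 543 fell (1.65%), so 8.98% were called, and 0 of the 9 genes was called. Without adjustment 8401 probe sets had p below 0.05. Sox2's slope was -0.35 log2 units per day (SE 0.11, adjusted p = 0.085). In a limma fit of the 4 embryo arrays alone its slope passed, with an adjusted p of 0.0198, and it also passed without either 11.5 dpc liver array (adjusted p = 0.016). Its 2 liver arrays at 11.5 dpc read 23.6 and 55.5. Zic1's slope was -0.22 (SE 0.033, adjusted p = 0.0024), Zic1's second probe set gave -0.15 (adjusted p = 0.0053) and Pax6 1419271_at -0.18 (adjusted p = 0.012). These passed the p threshold and missed the size threshold. Their borrowed spread comes from liver arrays at or near the floor, where values cannot vary, so these adjusted p-values are too small by an unknown amount.

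The positive slopes were 0.18 for Stmn2 (SE 0.068, adjusted p = 0.128), 0.15 for Dcx (SE 0.079, adjusted p = 0.285), 0.05 for Tubb3 and 0.02 for Fabp7. Dcx 1418141_at had 0.29 (SE 0.093, adjusted p = 0.082). The neurofilament slopes were -0.19 for Nefm (SE 0.099, adjusted p = 0.278) and -0.15 for Nefl (SE 0.064, adjusted p = 0.176). The slopes depended on the end arrays. Without the 14.5 dpc array 523 probe sets were called in all, and the slopes were -0.11 for Sox2, 0.025 for Zic1, -0.0011 for Nefm, 0.015 for Nefl, 0.33 for Stmn2, 0.35 for Dcx, 0.27 for Tubb3 and 0.19 for Fabp7. Without the 10.5 dpc array they were -0.45 for Sox2, -0.33 for Zic1, -0.27 for Nefm, -0.20 for Nefl, 0.080 for Stmn2, 0.016 for Dcx, -0.049 for Tubb3 and -0.071 for Fabp7.

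Other genes of the same pathway were read by list, and most genes of each list were not called. Of 24 further progenitor genes tested, 6 fell and 1 rose, leaving 17 without a call. Their median slope was -0.19 log2 units per day, against 0.02 over 15544 genes, of which 8.78% rose and 1.48% fell. Dbx1, a factor of the intermediate spinal cord, read 472, 181, 251 and 84.0 (slope -0.55, adjusted p = 0.0090). Otx2, a factor of forebrain and midbrain, read 573, 485, 372 and 150 (slope -0.50, adjusted p = 0.00032). On the liver arrays Dbx1 read 16.2 to 43.3 and Otx2 10.5 to 36.5, near or under the floor. Their adjusted p-values borrow that spread and may be too small. Hes5, Pax3, Zic2 and Prom1 also fell. The 1 that rose was Gpm6a, a membrane glycoprotein found on growing neurites as well, at 331, 913, 1167 and 1976 (slope 0.59, adjusted p = 0.0010).

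Of 25 regulators of neurogenesis, 7 fell and 3 rose, leaving 15 without a call, and the median slope was -0.20. Nhlh2, a basic helix-loop-helix factor of newly born neurons, read 1890, 1743, 1241 and 300.3 (slope -0.69, adjusted p = 3.9e-07). Neurod4 read 188, 56.9, 53.0 and 9.70, and 67.4 to 152 in embryonic liver, so after 10.5 dpc it lay below every embryonic liver array. Atoh1, Dll3, Lhx1, Lhx5 and Nhlh1 also fell. Neurod6, a factor of maturing cortical projection neurons, read 1.54, 78.9, 344 and 1191 (slope 1.40, adjusted p = 3.7e-10). Its 10.5 dpc value was raised to the floor, so this slope is a lower bound. Myt1l, a zinc finger factor of postmitotic neurons, read 108, 293, 397 and 957 (slope 0.74), and Tbr1, a T-box factor of cortical neurons, was the other that rose. Neurod6, Myt1l and Nhlh2 were at or under the floor on all liver arrays except Nhlh2 in 1 adult array (25.3), so their adjusted p-values borrow a spread near 0.

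Of 23 further genes of neuron structure, 6 rose and 0 fell, leaving 17 without a call, and the median slope was 0.10. Mapt, the axonal microtubule protein tau, read 154, 432, 602 and 1302 (slope 0.72, adjusted p = 0.0060), and Prph, the intermediate filament of peripheral neurons, read 98.8, 214, 361 and 727 (slope 0.70, adjusted p = 0.0017). Prph also read 394 and 257 in liver at 10.5 dpc, above the embryo array of that stage. Among the embryo arrays it was highest at 14.5 dpc, where Nefl and Nefm, of the same filament family, were lowest. Dclk1, Stmn4, Rtn1 and L1cam also rose. Of 21 synapse and transmitter genes, 8 rose and 0 fell, leaving 13 without a call, and the median slope was 0.28. Scg2, a secretogranin of dense core vesicles, read 88.2, 159, 200.5 and 561 (slope 0.65, adjusted p = 0.0025), and Gad1, which makes the transmitter GABA, read 122, 251, 274 and 679 (slope 0.58). Gad1 was under the floor on all liver arrays, and Scg2 read 8.94 to 49.6 there. Their tests borrow a spread at or near the floor. Chgb, Syt1, Chat, Vamp2, Snap25 and Syn1 also rose.

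Of 11 glia and neural crest genes, 4 rose and 0 fell, against 8.78% and 1.48% of all genes. Their median slope was 0.02, the same as over all genes. With median centring or quantile normalization 2 of 10 tested rose, and in the 4 embryo arrays alone 1 of 8. The 4 were Aldh1l1, an astrocyte and liver enzyme, at 23.3, 26.7, 59.2 and 187, Olig1, of oligodendrocyte precursors, at 88.3, 58.3, 87.6 and 419, and S100b and Erbb3. Olig1 read 4.64 to 33.0 on the liver arrays, near or under the floor, so its test borrows a small spread. Aldh1l1 also rose in liver, and hepatocyte genes moved with it in the rest of the embryo, where 6 of 7 rose. Their part in the Aldh1l1 result was not tested. These list calls depended on the end arrays. Without the 14.5 dpc array, 1 of the progenitor genes rose and 0 fell, 2 neurogenesis genes rose and 1 fell, 1 neuron structure gene and 2 synapse genes rose, and 0 glia and crest genes were called, while 1.62% of all probe sets were called. Without the 10.5 dpc array, 2 neuron structure genes rose in place of 6, 6 synapse genes rose, 5 progenitor genes fell, and 6 neurogenesis genes fell and 3 rose, while 10.4% of all probe sets were called.

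**Figure D3:**
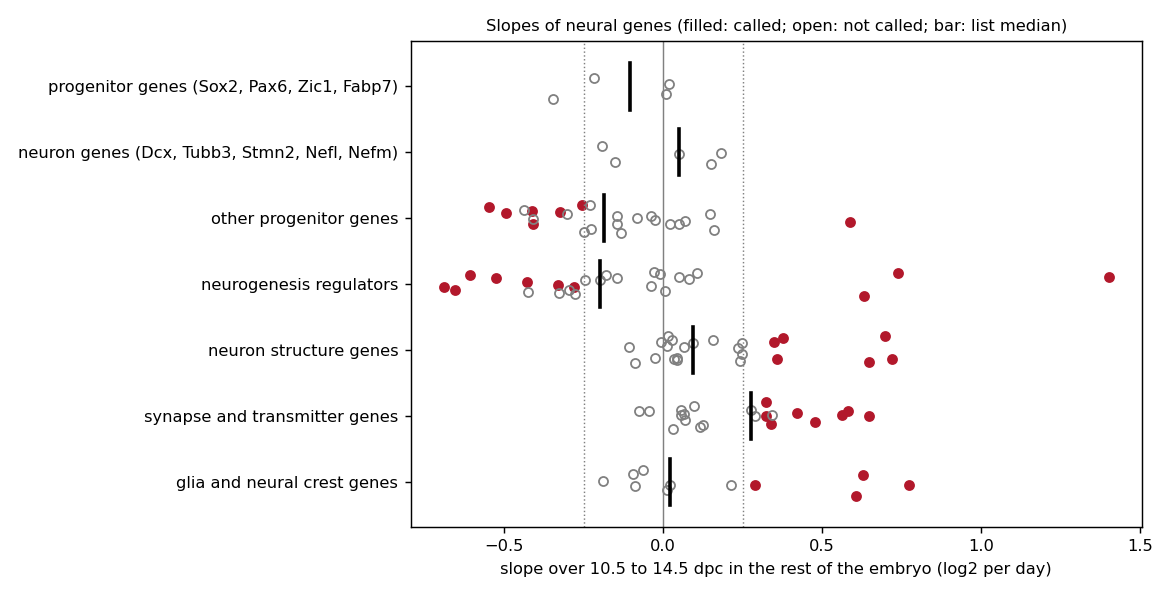
Slope over 10.5 to 14.5 dpc in the rest of the embryo (log2 units per day) for each tested gene of 7 groups, 1 point per gene, filled where called; the black bar is the group median and the dotted lines mark a slope of 0.25 in either direction. None of the 9 genes of the top 2 groups is filled, and the 6 filled neuron structure genes and 8 filled synapse and transmitter genes all lie to the right.

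At the 4 stages that both tissues share, 8 of the 9 genes were higher in the rest of the embryo than in liver, where 63.6% of all probe sets were called, 48.7% higher and 14.9% lower. The differences for these 8, in which liver values under the floor count as the floor, were far above the table's median of 0.96 log2 units. Zic1, Dcx, Fabp7, Stmn2 and Pax6 1419271_at exceeded the filter on fewer than 2 of the matched liver arrays. They were tested only because they were high in the rest of the embryo, so their calls and adjusted p-values count as a description. Zic1 averaged 3266 on 4 arrays of the rest of the embryo, against 16.3 on 8 liver arrays, 7 of which lay at or under the floor (a difference of at least 6.98 log2 units, limma adjusted p = 2.8e-10). Its second probe set averaged 1141 in the rest of the embryo, with all 8 liver arrays at or under the floor, which makes it at least 45.2-fold higher there. Fabp7 differed by 6.80 log2 units (SE 0.15), Stmn2 by 6.07, Sox2 by 6.06 (SE 0.27), Nefm by 6.04 (SE 0.35), Dcx by 5.78, Nefl by 5.20 and Tubb3 by 5.19, each higher on 4 of 4 arrays of the rest of the embryo than on every one of the 8 liver arrays. Pax6 was -0.72 by 1437816_at (SE 0.16, adjusted p = 0.0015), within the size threshold but called lower at -1.12 under median centring and -1.30 under quantile normalization, and 4.23 by 1419271_at (SE 0.16, adjusted p = 5.2e-09). All calls of these 8 genes held under every alternative tried, quantile normalization included, with the lowest difference 4.19 log2 units for Tubb3 and Nefl.

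The related lists are read against the shift of the whole table. Of 24 further progenitor genes 16 were higher and 2 lower, of 25 neurogenesis regulators 20 and 1, of 22 neuron structure genes 16 and 2, of 20 synapse and transmitter genes 11 and 3, and of 11 glia and crest genes 4 and 0, against 51.2% higher and 14% lower over 14896 genes. The shares for synapse and transmitter genes, 55% higher and 15% lower, were near those of all genes. Among the genes with the largest fitted differences, Irx3, a patterning factor, stood 4.75 log2 units higher, and Scg3, a secretory granule protein, 3.84 higher. Nhlh2, Rtn1 and Snap25 were at or under the floor on all 8 liver arrays, so their fitted differences of 5.41, 6.86 and 4.14 are lower bounds. Those of Ebf2 (5.21), Emx2 (4.32) and Stmn3 (6.61) are lower bounds too, since several of their liver arrays lay at or under it, and these values have no order among them. All of these genes, and Scg3, exceeded the filter on fewer than 2 of the matched liver arrays. Their calls count as a description, and the list counts include such genes. Of the glia and crest genes 36.4% were higher, a smaller share than of all genes, and by quantile normalization 1 of its genes was higher and 1 lower.

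In liver, the residual signal of these genes differed by gene and by probe set. Nefm, Sox2, Tubb3, Dcx 1418139_at and Nefl 1454672_at were highest at 10.5 dpc. Nefm read 227 and 311 at 10.5 dpc, 59.8 and 120 at 11.5, 61.2 and 80.5 at 12.5, 15.8 and 25.4 at 13.5, 11.2 and 26.2 at 14.5, and -1.50 and 1.79 at 16.5 dpc, with 3.83 and 1.63 in adult liver. It was highest in both 10.5 dpc arrays, and from 13.5 dpc on it lay between -1.50 and 26.2, near the floor or under it. Sox2 read 80.4 and 85.7 at 10.5 dpc, 23.6 and 55.5 at 11.5, 26.7 and 29.3 at 12.5, 30.2 and 37.7 at 13.5, 37.7 and 17.8 at 14.5, and 1.0 and -1.84 at 16.5 dpc, with -7.14 and -0.40 in adult liver. Tubb3 read 162 and 124 at 10.5 dpc, 109 and 114 at 11.5, 78.5 and 76.7 at 12.5, 58.8 and 87.9 at 13.5, 59.1 and 72.2 at 14.5, and 60.8 and 59.0 at 16.5 dpc, with 48.1 and 44.1 in adult liver. Tubb3's groups at 10.5 and 11.5 dpc lay above all later liver arrays, and its 12.5 dpc group (76.7 and 78.5) lay above those of 14.5 and 16.5 dpc, while the 13.5 dpc group overlapped all 3.

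Dcx 1418139_at read 50.9 and 60.4 at 10.5 dpc and 21.8 to 43.1 on all later embryonic arrays, while Dcx 1418141_at read 43.7 to 88.0 over all 12. Zic1 and Pax6 1419271_at were near or under the floor at every liver stage. Zic1 read 4.44 to 26.3 on the 12 embryonic liver arrays, 11 of them at or under the floor, and its second probe set -10.9 to 5.54. The probe sets of Nefl differed. Nefl 1426255_at read 80.2 to 122 in embryonic liver and 73.7 and 84.0 in adult liver. Nefl 1454672_at read 51.6 and 54.1 at 10.5 dpc, above every later liver array, 26.8 and 17.9 at 16.5 dpc, and 36.1 and 42.6 in adult liver. Fabp7 read 39.1 to 88.6 in embryonic liver, highest at 12.5 dpc with 72.9 and 88.6, and 101.5 and 71.2 in adult liver. Stmn2 1423280_at read 29.8 to 82.2, with 29.8 to 47.6 at 10.5 and 11.5 dpc and 55.5 to 82.2 from 12.5 dpc on. Its second probe set, 1423281_at, did not share that pattern, at 53.6 and 33.3 at 10.5 dpc and 21.7 to 39.3 later.

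**Figure D4:**
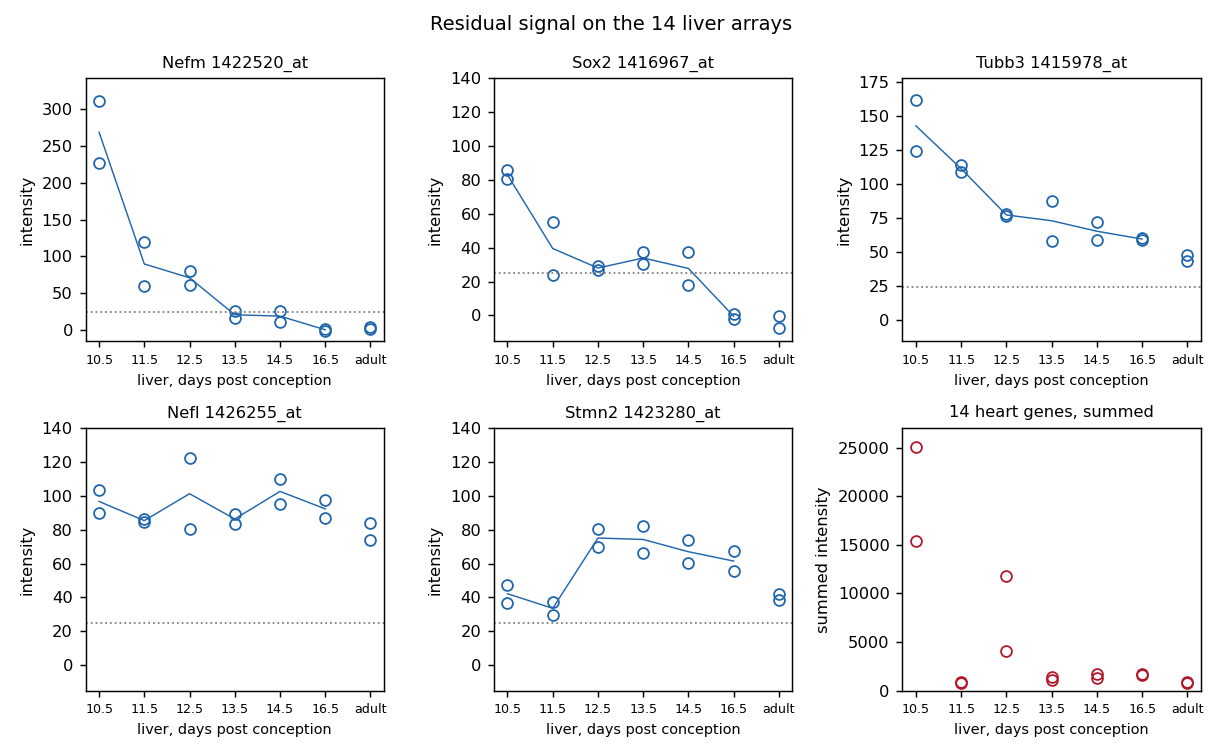
Intensity of 5 probe sets on the 14 liver arrays, 1 circle per array, by days post conception with adult liver last; lines join the means of the embryonic pairs, the dotted line is the floor of 24.8, and the last panel shows the summed intensity of 14 heart genes on the same arrays. Nefm and Sox2 reach values around 0 at 16.5 dpc, Nefl stays between 73.7 and 122, and the heart sum is high at 10.5 and 12.5 dpc.

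Between 10.5 and 16.5 dpc in liver, 16.7% of 28031 probe sets were called, 10.2% higher and 6.5% lower, and 3 of the 7 member genes tested were called, each lower at 16.5 dpc. Nefm was at least 10.7-fold lower at 16.5 than at 10.5 dpc, both arrays at 16.5 dpc being under the floor (log2 difference -3.42, SE 0.29, limma adjusted p = 1.1e-05). Sox2 was at least 3.34-fold lower (-1.74, SE 0.33, adjusted p = 0.0021, and -0.60 without a call when the floor was the 40th percentile), and it entered the test only through the 2 arrays at 10.5 dpc, so its call counts as a description. Tubb3 fell 2.37-fold (-1.24, SE 0.22, adjusted p = 0.0013). Stmn2 was not called (0.55, SE 0.21, adjusted p = 0.077), and neither were Fabp7 (-0.06), Nefl (-0.07) and Pax6 1437816_at (0.28). The probe sets that stand for Zic1 and Dcx were too dim in liver to be tested. Without either 10.5 dpc array, Sox2 was not tested, since a single array then exceeded the filter, and 2 genes were called.

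The first day carried part of this. From 10.5 to 11.5 dpc, 5.22% of probe sets were called, 2.82% higher and 2.4% lower. Nefm fell by 1.65 log2 units (SE 0.29, adjusted p = 0.0051), and it passed under all 22 alternatives. Sox2 fell by 1.16 (SE 0.33, adjusted p = 0.047) and lost its call under 16 of 20 alternatives, leave-one-out fits included. The arrays of the 2 stages did not overlap, and in the fit with the replicate block the difference was the same with an adjusted p of 0.058. Without the first 11.5 dpc array it was -0.58, and without the second -1.74. Here too Sox2 passed the filter only through the 10.5 dpc arrays. Tubb3 was at -0.35 (adjusted p = 0.339).

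Some markers of other tissues were also higher at 10.5 than at 16.5 dpc on the same arrays, where 6.95% of all genes were called lower at 16.5 dpc and 10.3% higher. The 14 heart genes summed to 25038 and 15433 at 10.5 dpc, 826 and 857 at 11.5, 4054 and 11805 at 12.5, and 1079 to 1696 from 13.5 to 16.5 dpc, and 12 of 14 fell between 10.5 and 16.5 dpc. All 14 exceeded the filter in both 10.5 dpc arrays. The 11 mesenchyme genes summed to 9983 and 7563 at 10.5 dpc and 3334 and 3442 at 16.5 dpc, and 8 of 11 fell. The 10 pancreas and foregut genes summed to 1494 and 1858 at 10.5 dpc, against 796 and 986 at 16.5 dpc. Of the 8 tested, 3 fell (Gcg, Barx1 and Cldn6) and 0 rose, and their median difference was -0.04 log2 units. At 12.5 dpc the heart genes were high again while Nefm read 61.2 and 80.5 and Sox2 26.7 and 29.3. The part of other tissue in the 10.5 dpc values was not tested. In a fit that dropped the 10.5 and 12.5 dpc arrays and took 11.5 dpc as the earlier stage, 0 of the member genes was called at 16.5 dpc. Nefm and Sox2 were then not tested, and Tubb3 stood at -0.90 (adjusted p = 0.019), within the size threshold.

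Other neural genes with liver signal at 10.5 dpc came from several lists. Of 20 neuron structure genes tested, 5 fell and 2 rose between 10.5 and 16.5 dpc. Nnat (neuronatin, an imprinted membrane protein) read 150 and 115 at 16.5 dpc, against 1456 and 1421 at 10.5 dpc (-3.45 log2 units, adjusted p = 6.3e-07). Tubb2b, a beta-tubulin of young neurons, read 138 and 123 at 16.5 dpc, against 1168 and 1203 at 10.5 dpc (-3.19). Dpysl3, Crmp1 and Uchl1 also fell, and Dclk1 and Mllt11 rose. Of 12 neurogenesis regulators, Isl1, a LIM factor of motor neurons that heart and pancreas progenitors also use, read -5.16 and -12.2 at 16.5 dpc, against 298 and 494 at 10.5 dpc (-3.95, adjusted p = 5.3e-06). Elavl2, a neuronal RNA-binding protein, also fell (-1.89), and St18 rose. Both Isl1 and Elavl2 were under the floor at 16.5 dpc, so the falls are at least that large. Elavl2 passed the filter only through the 10.5 dpc arrays (86.0 and 98.6), so its call counts as a description.

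Of 14 progenitor genes, Irx3 (-2.57), Lhx2 (-1.48) and Prom1 fell and 0 rose, Lhx2 being also a factor of liver stellate cells. Irx3 passed the filter only through the 10.5 dpc arrays (183 and 162), so its call counts as a description. Of 15 synapse and transmitter genes, Slc32a1 (1.62) and Syt1 (1.26) rose and 0 fell. Of 10 glia and crest genes, Aldh1l1 (2.61) and Mbp (1.07) rose and 0 fell. Over all 14127 genes, 10.3% were called higher and 6.95% lower. In the fit that took 11.5 dpc as the earlier stage, the counts lower and higher were 4 and 2 for neuron structure, 1 and 1 for neurogenesis and 1 and 0 for progenitor genes, with 8.79% of probe sets called.

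Adult liver was set against an average over the 6 embryonic stages, where 35% of probe sets were called, 12.4% higher and 22.7% lower, and the median of all probe sets was -0.16 log2 units. Of the 7 member genes tested, Nefm was called, at -1.12 (SE 0.22, adjusted p = 0.0011), with both adult arrays under the floor. With the floor at the 40th percentile its difference was -0.54 and it was not called, and without the 10.5 and 12.5 dpc arrays it was too dim to be tested. Tubb3 at -0.86 (adjusted p = 0.00090), Stmn2 at -0.48 (adjusted p = 0.024) and Fabp7 at 0.67 (adjusted p = 0.0042) passed the p threshold and missed the size threshold. Among the other Pax6 probe sets, 1452526_a_at read 83.8 and 95.5 in adult liver, against 2.34 to 32.7 on the 12 embryonic arrays, 11 of them at or under the floor. It exceeded the filter only in the adult arrays, so this is a description. Probe set 1419271_at read 14.8 and 26.1 in adult liver, below the adult values of 1452526_a_at in both arrays.

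Slopes over the matched stages differed between the tissues for 2 of the 9 genes, where 11.1% of probe sets were called, 6.87% higher in the rest of the embryo and 4.21% lower. Nefm's slope was -0.19 log2 units per day in the rest of the embryo and -0.78 in liver, a difference of 0.59 (SE 0.16, adjusted p = 0.035). Tubb3's slope was 0.05 in the rest of the embryo and -0.28 in liver, a difference of 0.33 (SE 0.088, adjusted p = 0.033). Sox2's slopes were -0.35 in the rest of the embryo and -0.32 in liver, a difference of -0.03 (SE 0.19, adjusted p = 0.942). Without the 10.5 and 12.5 dpc liver arrays 0 of the 9 genes was called, and without the 14.5 dpc array of the rest of the embryo 76 probe sets were called in all and 0 of these genes.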

How the data were processed

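Gene expression was measured in 18 samples on Affymetrix arrays. Per the labels' protocols, RNA was extracted and biotin-labelled cRNA hybridised. The deposited values are probe set intensities on a linear scale. The summarisation and scaling behind them are not given in the sources used here. Titles of the rest-of-embryo samples also name liver, and the adult samples' treatment text describes a hepatectomy while their titles and source name normal liver. Groups follow the titles and sources.

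The intensities were floored at 24.8, taken to log2 and fitted with limma 3.58.1 in R 4.3.3 (lmFit, eBayes with a trend), after testing on simulated data. A probe set needed 77.95 on 2 arrays. Slopes in the rest of the embryo used all 18 arrays, the difference between tissues and that between their slopes 12, and liver comparisons 14. A gene was represented by its probe set of highest mean log2 value. From each list up to 2 called genes were named with values: for the course those with the largest slope in each direction, and otherwise those with the largest absolute difference. Other called genes of the lists are given by symbol only. The 9 genes and the lists were chosen with earlier results of these data known. The titles call the replicates biological, and whether they are separate litters is not stated in the labels. The p-values therefore cover only the variation among these samples, and the number of arrays limits the precision. Alternatives were the floor, the filter, the scaling, the probe set per gene, the arrays in the fit, a replicate block and leaving out each array.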

Additional observations from a re-analysis of the deposited data

Results flagged for a closer look

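The course of Nefm between 10.5 and 14.5 dpc differed between the rest of the embryo and liver by an interaction test in limma. Its slope was higher in the rest of the embryo by 0.59 log2 units per day (SE 0.16, adjusted p = 0.035), and the call was lost in 10 of 21 alternatives. The course of Tubb3 differed in the same direction by 0.33 log2 units per day (SE 0.088, adjusted p = 0.033), and the call was lost in 5 of 21 alternatives. Heart and mesenchyme genes were also high in the 10.5 dpc liver arrays, and their part in either difference was not tested.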

How the results depend on the processing

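All calls of the 8 genes higher in the rest of the embryo held under every alternative run. For Zic1, Dcx, Fabp7 and Stmn2, which passed the filter through the rest of the embryo, this remains a description. The counts of probe sets called were 1624 for the course and 12775 for the tissue difference under quantile normalization, and 1704 for the course in the 4 rest-of-embryo arrays alone. With 1 probe set per gene, which tests fewer probe sets, they were 1648 for the course, 9700 for the tissue difference, 2091 for the difference of slopes, 799 for 11.5 minus 10.5 dpc, 2457 for 16.5 minus 10.5 dpc and 5020 for adult liver. The difference of slopes gave 5437 in a fit of all 18 arrays. With 16.5 set against 11.5 dpc, 2381 probe sets and 0 member genes were called. Of the member genes, 1 was called for the course with the floor at the 40th percentile, with median centring and in the 4 arrays alone. For the difference of slopes, 1 was called with that floor, with no filter and with median centring, and 0 without the 10.5 and 12.5 dpc liver arrays. For 11.5 minus 10.5 dpc, 1 was called with either floor, no filter, the replicate block or all 18 arrays. For adult liver, 2 were called with the floor at the 10th percentile and 0 with the floor at the 40th or without the 10.5 and 12.5 dpc arrays.

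Leaving out 1 array at a time gave 523 (without the 14.5 dpc embryo array) to 3387 (without the 10.5 dpc one) for the course with 0 to 1 member genes, 76 (without the 14.5 dpc embryo array) to 3572 for the difference of slopes with 0 to 2, 882 to 3575 for 11.5 minus 10.5 dpc with 1 to 2, 4362 to 5575 for 16.5 minus 10.5 dpc with 2 to 3, 19113 to 19896 for the tissue difference with 8, and 8309 to 10012 for adult liver with 1. The count for 11.5 minus 10.5 dpc was lowest without the first 11.5 dpc liver array and highest without the second 10.5 dpc one.

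Some uncalled slopes changed sign. Under median centring the course of Pax6 1437816_at was -0.044, of Fabp7 -0.033 and of Tubb3 -0.0028, and under quantile normalization that of Pax6 1437816_at was -0.039. For the difference of slopes, Sox2 was 0.027 with the floor at the 10th percentile, Stmn2 1423280_at 0.10 and Nefl 1454672_at -0.089 with it at the 40th, and Nefl 1454672_at -0.074 without the 10.5 and 12.5 dpc liver arrays. For 16.5 against 11.5 dpc, Pax6 1437816_at was -0.0059 and Nefl 1426255_at 0.11. Over all alternatives the course ranged from -0.071 to 0.19 for Fabp7, -0.20 to 0.015 for Nefl 1426255_at, -0.20 to 0.17 for Nefl 1454672_at, -0.10 to 0.063 for Pax6 1437816_at, -0.012 to 0.45 for Stmn2 1423281_at, -0.049 to 0.27 for Tubb3 and -0.33 to 0.025 for Zic1. The difference of slopes ranged from -0.25 to 0.0060 for Fabp7, -0.25 to 0.20 for Sox2, -0.15 to 0.10 for Stmn2 1423280_at, -0.09 to 0.32 for Nefl 1454672_at and -0.33 to 0.028 for Zic1. Fabp7 ranged from -0.072 to 0.34 for 11.5 minus 10.5 dpc, and Nefl 1426255_at from -0.18 to 0.11 for 16.5 minus 10.5 dpc. Without the 10.5 dpc embryo array the difference of slopes was -0.13 for Sox2, -0.14 for Stmn2 1423280_at and -0.053 for Nefl 1454672_at. Leaving out single 10.5 dpc liver arrays put Nefl 1426255_at at -0.17 and 0.034 for 16.5 minus 10.5 dpc. The causes were not tested.

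Replicate numbers did not pair the liver arrays: over 21 pairs of stages the correlation of same-numbered deviations had a median of 0.007 and 3 exceeded 0.1. With the replicate block, 2848 probe sets were called for the course, 19841 for the tissue difference, 2989 for the difference of slopes, 1440 for 11.5 minus 10.5 dpc, 4674 for 16.5 minus 10.5 dpc and 9808 for adult liver. Leaving out the 10.5 and 12.5 dpc arrays and choosing the brightest probe set in the rest of the embryo were alternatives added after seeing the data. In liver, low signal limits Zic1, Dcx and Pax6 1419271_at.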

Other observations

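Lists of other tissues also changed over the 4 rest-of-embryo arrays. Of 9 lens and eye genes tested 4 rose and 0 fell, of 11 mesenchyme genes 5 rose and 1 fell, of 8 pancreas and foregut genes 0 rose and 1 fell, of 14 heart genes 0 were called, and of 8 erythroid genes 0 rose and 2 fell. These counts stand beside 8.78% of all genes that rose and 1.48% that fell.

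Over 18 arrays and 14428 candidate genes, the profiles most like the mean of the progenitor genes were those of Sh3bp5l, Tfap4, Fezf1 and Med11 (Pearson's r up to 0.997), and those most like the mean of the neuron genes were Chmp5, Ttc33, Pea15a and Ttpal (r up to 0.996). The likeness is a description, since all of these profiles share the split between embryo and liver arrays.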
